A study of Solanum tuberosum with 8 samples.

Results

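The array probe MICRO.3150.C2, described in the tables of the study as an asparagine synthetase similar to the enzyme of asparagus, was followed in leaves of potato (*Solanum tuberosum* cv Solara). It was the 1 probe of 42034 on the array whose identifier begins with MICRO.3150.C, so that no probe for another sequence of the same contig could be set beside it. The probe was selected on its measured log2 intensities, because its drought responses in the 2 lines lay farther apart than those of the other probes. Its levels in the 4 groups are therefore given as a description, without a test.

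Leaf RNA came from 4 groups with 2 arrays each, namely *Stpfld252* plants after 3 days without water (drought), *Stpfld252* plants kept watered (control), wild type (WT) plants under drought and WT plants under control conditions. *Stpfld252* is 1 transgenic line in which flavodoxin (Fld) of the cyanobacterium *Anabaena* carries a pea chloroplast transit peptide and is driven in all tissues by a constitutive promoter of cauliflower mosaic virus. Plants were 4 weeks old per the labels, and each array carried 1 of 2 pools of young, fully expanded leaves from several plants, so the spread between arrays is a spread between pools. Drought arrays lay on 1 slide and control arrays on the other, which means that effects of the slide and of drought cannot be told apart. On each slide *Stpfld252* took positions 1 and 2 and WT positions 3 and 4.

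Asparagine synthetase transfers the amide nitrogen of glutamine to aspartate, which gives asparagine and glutamate at the cost of ATP. Asparagine carries much nitrogen per carbon and is a main form in which plants store and move nitrogen. Asparagine synthetase genes of other plants, such as Arabidopsis, are known for expression in darkness, sugar shortage and senescence. Nitrogen enters the pathway through nitrate reductase, nitrite reductase, glutamine synthetase and glutamate synthase. Asparaginase releases it again, and aspartate is also the precursor of lysine, threonine, isoleucine and methionine.

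Across the arrays, the median spot was between 3.64 and 4.45 times as bright as its local background and 0 spots were saturated. Of the 8 rubisco small subunit probes used as leaf markers, 8 were well above background on both *Stpfld252* drought arrays, 8 on both *Stpfld252* control arrays, 7 on both WT drought arrays and 8 on both WT control arrays. Their summed linear level ran from 464805 to 486219 in *Stpfld252* drought, from 554716 to 560635 in *Stpfld252* control, from 138830 to 145763 in WT drought and from 487425 to 507715 in WT control. Of 7 patatin probes, which stand for the storage protein of tubers, 7 were well above background on both arrays of *Stpfld252* drought, 7 in *Stpfld252* control, 1 in WT drought and 6 in WT control. Their sums ran from 878 to 937 in *Stpfld252* drought, from 1496 to 1515 in *Stpfld252* control, from 158 to 164 in WT drought and from 339 to 385 in WT control. The WT drought leaves thus had the lowest sums in both lists. Both lists were taken from tables of the study that list probes called on these same arrays. Differences between groups are therefore built into the marker sums and are no independent evidence. In the patatin sums both WT groups lay below both *Stpfld252* groups. The part of these differences in the results on asparagine synthetase was not tested. Fewer cells of a type and less RNA per cell cannot be told apart in such samples.

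MICRO.3150.C2 was brightest by far in WT leaves under drought, was intermediate in watered *Stpfld252* leaves, and was lowest in both droughted *Stpfld252* leaves and watered WT leaves. The median fluorescence intensity of its spot was 1734 and 1752 on the *Stpfld252* drought arrays and 13924 and 14966 on the *Stpfld252* control arrays. It was 144158 and 132153 on the WT drought arrays and 1626 and 1605 on the WT control arrays. The 4 pairs of arrays did not overlap. Local background was between 48.5 and 59 on every array, so that even the faintest of these spots was 28.5 times as bright as its surroundings. All 8 spots were well above background, 0 were saturated and 0 carried the outlier flags of the scanner software. Both WT drought spots were bright enough to be read from the scan at low gain and scaled up, as were between 427 and 664 probes of each array, and the software gave each of the 8 signals an error of 10%.

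After background correction with normexp and quantile normalization, which makes the distribution of intensities equal on all arrays, levels are given as log2 intensity, where 1 unit is a 2-fold difference. MICRO.3150.C2 had 10.82 and 10.91 on the *Stpfld252* drought arrays, 13.70 and 13.74 on the *Stpfld252* control arrays, 17.11 and 17.07 on the WT drought arrays and 10.73 and 10.76 on the WT control arrays. The group means were 10.86 ± 0.063 in *Stpfld252* drought, 13.72 ± 0.024 in *Stpfld252* control, 17.09 ± 0.024 in WT drought and 10.75 ± 0.021 in WT control (SD, n = 2 each). The pooled SD within groups, 0.037, was small beside the distance of 6.34 between the highest and the lowest group.

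**Figure D1:**
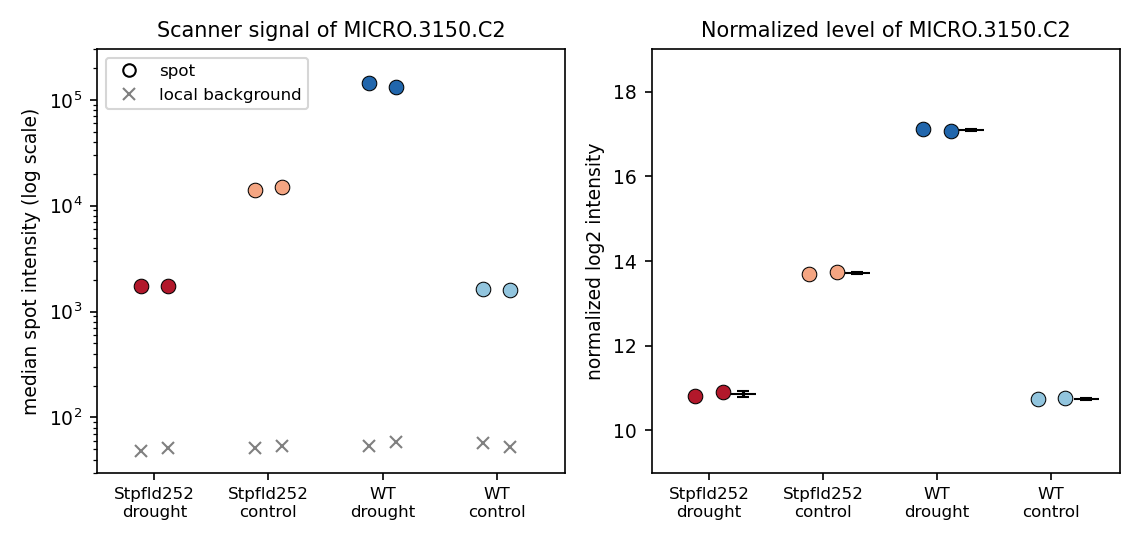
Level of MICRO.3150.C2 on each of the 8 arrays, as the median spot intensity with its local background (left, log axis) and as normalized log2 intensity with the mean and SD of each group (right, n = 2 arrays). The WT drought arrays lie near 17.1 on the right, the *Stpfld252* control arrays near 13.7, and the other 4 arrays between 10.73 and 10.91.

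Relative to their watered controls, droughted leaves of the 2 lines moved in opposite directions. In *Stpfld252* the level was lower under drought by 7.24-fold (log2 difference −2.86). In WT it was higher under drought by 81.3-fold (log2 difference 6.34). The drought response of *Stpfld252* minus that of WT was −9.20 on the log2 scale, a ratio of 589, and was the most negative of the 36250 probes tested. The next probe, MICRO.14712.C2, had practically the same difference, −9.20, and the third had −7.27. These are the values by which the probe was chosen.

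Between the lines, the sign of the difference depended on watering. Under drought, *Stpfld252* leaves had a level 74.96-fold lower than WT leaves (log2 difference −6.23), and under control conditions a level 7.85-fold higher (log2 difference 2.97). Among the 36250 probes, 5 had a more negative difference between the lines under drought, and 57 had a more positive one under control conditions. Both comparisons were made within 1 slide. Droughted *Stpfld252* leaves and watered WT leaves were the neighbours in the order of levels that came closest, with means 1.08-fold apart, which is less than the 10% error of the signals. Their order was turned by cyclic loess normalization, with a difference of −0.033 on the log2 scale in place of 0.12, so no order is given for them. The log2 values that the authors deposited gave −2.85 for drought in *Stpfld252*, 6.33 for drought in WT, −6.22 between the lines under drought and 2.96 between them under control conditions.

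The rest of the pathway was read from 89 probes that the tables of the study, analysed in part, place in the breakdown of asparagine, nitrogen metabolism and the linked amino acids. Most were listed there because they had been called on these same arrays, so a high share of calls among them is built into the list and is no independent evidence. The same limit holds for every count by group below. Each was tested with limma over all 36250 probes that passed a filter on dim signals, and all 89 passed it. A probe was called higher or lower when its Benjamini-Hochberg adjusted p was under 0.05 and its change over 2-fold, and each SE is that of this fit. Under drought in *Stpfld252*, 16 of the 89 were called higher (5.61% of all probes tested) and 23 lower (7.76%), with a median log2 change of −0.11 against 0.049 over all probes tested. Under drought in WT, 31 were called higher (8.20%) and 30 lower (10.0%), with a median of −0.61 against 0.041. For *Stpfld252* against WT under drought, 23 were called higher (5.90%) and 23 lower (4.88%), and under control conditions 16 were higher (3.78%) and 18 lower (2.00%). The drought response was higher in *Stpfld252* than in WT at 25 probes (5.82%) and lower at 31 (5.97%).

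Asparaginase hydrolyses asparagine to aspartate and ammonium, and was represented by 3 probes whose levels went different ways. MICRO.5707.C1 had 7.90 and 8.06 in *Stpfld252* drought, 9.74 and 9.70 in *Stpfld252* control, 8.07 and 8.05 in WT drought and 11.37 and 11.499 in WT control, all as log2 intensity. The watered WT leaves were thus the highest, and the droughted leaves of both lines overlapped. It fell under drought by 3.34-fold in *Stpfld252* (log2 change −1.74, SE 0.086, adjusted p = 1.7e-06 in limma's test) and by 10.4-fold in WT (−3.37, adjusted p = 3.0e-08). Under control conditions it was lower in *Stpfld252* than in WT by 3.28-fold (−1.71, adjusted p = 6.5e-06), while under drought the lines differed by −0.081 (adjusted p = 0.45). The drought responses differed by 1.63 (SE 0.12, adjusted p = 3.9e-05).

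MICRO.16117.C1 is listed under asparaginase in the tables, with no sequence match given. It had 6.74 and 6.46 in *Stpfld252* drought, 7.18 and 7.15 in *Stpfld252* control, 5.67 and 5.70 in WT drought and 7.62 and 7.40 in WT control. It fell under drought in WT by 3.54-fold (−1.82, adjusted p = 3.5e-06), and changed by −0.57 in *Stpfld252* (adjusted p = 0.0032), which was under 2-fold. Its responses differed by 1.25 (adjusted p = 6.1e-04), a call that a normexp offset of 50 lost. In contrast, MICRO.11958.C1 rose under drought in both lines, to 11.47 and 11.63 in *Stpfld252* against 10.42 and 10.46 in its controls, and to 11.61 and 11.60 in WT against 10.18 and 10.13 in its controls. The changes were 1.11 in *Stpfld252* (adjusted p = 1.4e-05) and 1.45 in WT (adjusted p = 1.9e-06), and the difference of −0.33 between them was not called (adjusted p = 0.052). Between the lines under drought the differences at the 3 probes were under 2-fold, the widest being 0.91 at MICRO.16117.C1 (adjusted p = 3.1e-04). It was over 2-fold with cyclic loess, with median scaling and without *Stpfld252* drought array 2.

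Glutamine synthetase makes the glutamine that asparagine synthetase uses as nitrogen donor, and glutamate synthase (GOGAT) recycles the glutamate. Of the 7 probes for ammonium assimilation, under control conditions 2 were higher (3.78% of all probes tested) and 4 lower (2.00%) in *Stpfld252* than in WT. Under drought 1 of the 7 was higher (5.90%). Drought lowered 1 of them in *Stpfld252* (7.76%) and 2 in WT (10.0%). The glutamine synthetase probe MICRO.1095.C2 had 12.71 and 12.73 in *Stpfld252* drought, 12.45 and 12.41 in *Stpfld252* control, 12.87 and 12.97 in WT drought and 13.62 and 13.87 in WT control. Watered WT leaves were again above the other groups. It was lower in watered *Stpfld252* than in watered WT by 2.50-fold (−1.32, adjusted p = 4.0e-05), as was MICRO.1095.C1 of the same contig by 2.62-fold (−1.39, adjusted p = 2.0e-05), although this second call was lost with a normexp offset of 50.

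MICRO.8061.C1, also described as glutamine synthetase, had another pattern. Its levels were 7.86 and 7.69 in *Stpfld252* drought, 10.17 and 10.15 in *Stpfld252* control, 5.40 and 5.28 in WT drought and 6.92 and 6.84 in WT control. Both *Stpfld252* groups stood above their WT counterparts, by 5.42-fold under drought (log2 change 2.44, SE 0.090, adjusted p = 5.0e-07) and by 9.74-fold under control conditions (3.28, adjusted p = 5.9e-07). The log2 changes under drought were −2.39 in *Stpfld252* (adjusted p = 4.4e-07) and −1.54 in WT (adjusted p = 2.4e-06), of which that in WT was under 2-fold with a normexp offset of 50. The difference between the responses, −0.84 (adjusted p = 0.0014), was over 2-fold with a normexp offset of 16 or 50.

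Ferredoxin-dependent GOGAT, the main form of green leaves, was measured by MICRO.8806.C1 and fell under drought in WT by 2.04-fold (−1.03, adjusted p = 7.4e-06), a call lost with median scaling or the processed signal. In *Stpfld252* it changed by −0.16 (adjusted p = 0.098). NADH-dependent GOGAT (MICRO.292.C1) was higher in watered *Stpfld252* than in watered WT by 2.85-fold (1.51, adjusted p = 1.1e-05), and its drought responses differed by −1.17 (adjusted p = 2.0e-04). MICRO.292.C2, a further probe of its contig, differed by 0.12 between the watered lines (adjusted p = 0.25), with a difference of responses of 0.16 (adjusted p = 0.26). Glutamate dehydrogenase, which can release ammonium from glutamate, was lower in watered *Stpfld252* than in watered WT at both of its probes (2.00% of all probes tested). It was lower by 2.37-fold at bf_stolxxxx_0055h06.t3m.scf (−1.24, adjusted p = 1.2e-04) and by 2.09-fold at MICRO.7144.C1 (−1.06, adjusted p = 3.1e-05).

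**Figure D2:**
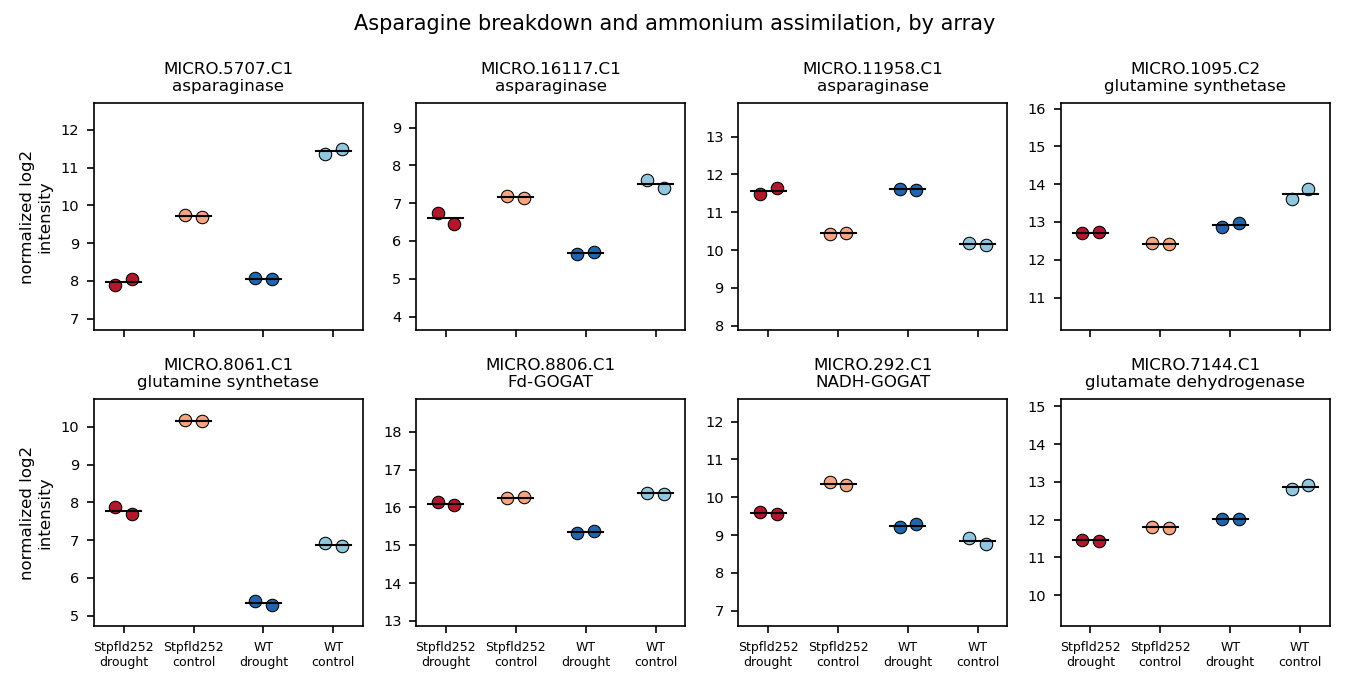
Normalized log2 intensity of 3 asparaginase probes and 5 probes for ammonium assimilation on each array, with bars at the group means (n = 2) and an axis of 6 log2 units in every panel. MICRO.5707.C1 reaches its highest values in WT control, near 11.4, and MICRO.8061.C1 in *Stpfld252* control, near 10.2.

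Nitrate reductase and nitrite reductase supply the ammonium for these amides. All 6 of their probes fell under drought in WT, where 10.0% of all probes tested were called lower. All 6 had a higher drought response in *Stpfld252* than in WT (5.82%), with a median difference of 5.97 on the log2 scale. The nitrate reductase probe MICRO.18049.C1 had 12.77 and 12.80 in *Stpfld252* drought, 13.35 and 13.36 in *Stpfld252* control, 6.03 and 5.89 in WT drought and 14.83 and 14.89 in WT control. The WT drought arrays stood far below all others. The difference of its responses, 8.33 (SE 0.11, adjusted p = 4.3e-08), was the most positive of the 36250 probes, where that of MICRO.3150.C2 was the most negative. POCD505TP, a further nitrate reductase probe, had a mean of 10.75 in WT control. It was not well above background in WT drought, so no fold is given, and was called lower there (adjusted p = 4.9e-09).

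The nitrite reductase probes MICRO.10331.C1 and MICRO.4468.C1 ran opposite to the asparagine synthetase probe in direction, with smaller changes. The third nitrite reductase probe was lower under drought in both lines, by a log2 change of −0.62 in *Stpfld252*, which was not called, and −1.86 in WT. Between the watered lines that probe differed by 0.0017. MICRO.10331.C1 had 13.24 and 13.34 in *Stpfld252* drought, 12.25 and 12.20 in *Stpfld252* control, 8.80 and 8.99 in WT drought and 13.67 and 13.65 in WT control. It was thus lowest where MICRO.3150.C2 was highest, followed by watered *Stpfld252* leaves. Drought raised it in *Stpfld252* by 2.10-fold (1.07, adjusted p = 2.7e-05) and lowered it in WT by 27.2-fold (−4.76, adjusted p = 7.1e-09). At MICRO.4468.C1 the changes were 1.46 in *Stpfld252* and −4.13 in WT. Among all 36250 probes, 48 (0.132%) were called higher under drought in *Stpfld252* and lower in WT. Of the list of 89, these 2 nitrite reductase probes were.

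In the opposite class, called lower under drought in *Stpfld252* and higher in WT, were 61 of the 36250 probes (0.168%) and 3 of the 89. All 3 were described as lysine-ketoglutarate reductase/saccharopine dehydrogenase (LKR/SDH), the bifunctional enzyme that begins the breakdown of lysine. MICRO.7729.C1 had 10.46 and 10.35 in *Stpfld252* drought, 13.15 and 13.09 in *Stpfld252* control, 14.82 and 14.88 in WT drought and 11.85 and 11.87 in WT control. The order of its upper groups was that of MICRO.3150.C2, with WT drought above *Stpfld252* control, but here *Stpfld252* drought lay below WT control. Drought lowered it in *Stpfld252* by 6.59-fold (−2.72, adjusted p = 1.2e-07) and raised it in WT by 7.94-fold (2.99, adjusted p = 3.1e-08). The differences of the responses were −5.71 (SE 0.11, adjusted p = 2.1e-07) at MICRO.7729.C1, −5.22 (adjusted p = 1.8e-06) at MICRO.7180.C1 and −5.06 (adjusted p = 2.1e-06) at MICRO.4464.C2. Another probe of the last contig, MICRO.4464.C1, was well above background in WT drought alone.

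Homoserine and lysine are made from aspartate. Of 8 probes for their synthesis, drought lowered 5 (10.0% of all probes tested) and raised 1 (8.20%) in WT. In *Stpfld252* it lowered 1 (7.76%) and raised 2 (5.61%). The drought response was higher in *Stpfld252* at 5 of the 8 by limma (5.82%). These 5 were the probes for aspartate kinase, which commits aspartate to the pathway, alone or fused to homoserine dehydrogenase, with differences from 1.70 to 2.62. MICRO.710.C1, the bifunctional enzyme, had 14.81 and 14.75 in *Stpfld252* drought, 14.27 and 14.18 in *Stpfld252* control, 11.87 and 11.84 in WT drought and 14.04 and 13.81 in WT control. WT drought stood below the other groups, and the difference of its responses was 2.62 (SE 0.14, adjusted p = 6.9e-06). A further probe of its contig, MICRO.710.C2, had a difference of 0.17 (adjusted p = 0.31).

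**Figure D3:**
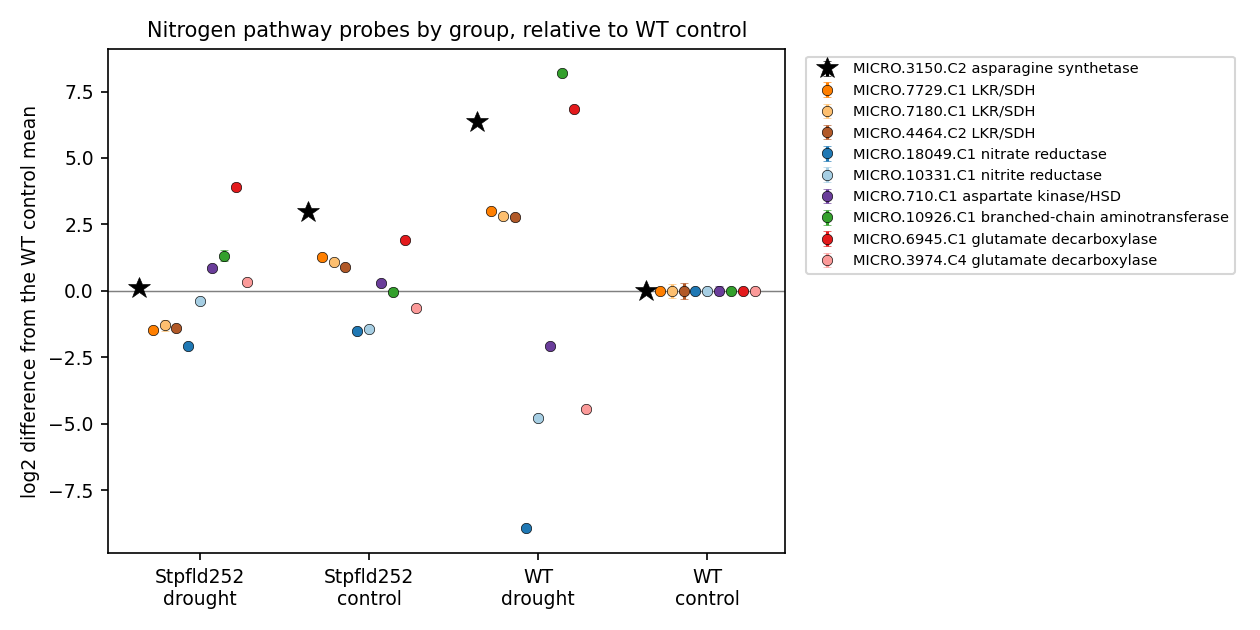
Group means of MICRO.3150.C2 and 9 pathway probes as log2 difference from the mean of WT control, so that levels of different probes are not compared, with the SD within each group (n = 2 arrays). Like MICRO.3150.C2, the 3 LKR/SDH probes and the glutamate decarboxylase probe MICRO.6945.C1 lie above 0 in *Stpfld252* control and WT drought. MICRO.6945.C1, unlike the others, is higher in droughted than in watered *Stpfld252*. Nitrate reductase reaches −8.90 in WT drought.

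Methionine is also made from aspartate, and was covered by 11 probes. Drought lowered 6 of the 11 in *Stpfld252* (7.76% of all probes tested), and lowered 2 (10.0%) and raised 3 (8.20%) in WT. Under drought 2 were higher (5.90%) and 2 lower (4.88%) in *Stpfld252* than in WT. The S-adenosylmethionine synthetase probe MICRO.43.C3 had the largest difference of responses, −1.26 (adjusted p = 1.7e-04). For lysine and methionine breakdown beyond LKR/SDH, methionine gamma-lyase, which splits methionine, rose under drought to 13.15 and 13.19 in *Stpfld252* against 11.02 and 10.98 in its controls. It rose to 15.71 and 15.67 in WT against 11.10 and 10.91 in its controls (MICRO.2739.C1). The increase was smaller in *Stpfld252* (difference of responses −2.52, adjusted p = 4.7e-06). MICRO.7814.C1, listed under lysine decarboxylase, had a difference of −2.59 (adjusted p = 5.6e-06).

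Glutamate, the other product of asparagine synthetase, is decarboxylated to gamma-aminobutyrate (GABA) or gives its amino group to alanine. Its 6 glutamate decarboxylase probes did not move as 1 group. MICRO.6945.C1 had 10.33 and 10.12 in *Stpfld252* drought, 8.23 and 8.22 in *Stpfld252* control, 13.16 and 13.13 in WT drought and 6.27 and 6.33 in WT control. It rose under drought by 3.99-fold in *Stpfld252* (adjusted p = 8.9e-07) and by 115-fold in WT (adjusted p = 1.9e-09), and it was higher in watered *Stpfld252* than in watered WT by 3.80-fold (adjusted p = 4.0e-06). MICRO.3974.C4 had 10.68 and 10.76 in *Stpfld252* drought, 9.71 and 9.76 in *Stpfld252* control, 5.88 and 5.99 in WT drought and 10.51 and 10.28 in WT control, so that only WT drought stood low. The differences of responses were −4.84 at MICRO.6945.C1 (adjusted p = 5.6e-07) and 5.44 at MICRO.3974.C4 (adjusted p = 5.6e-07). Another probe of the second contig, MICRO.3974.C1, had a difference of −0.13 (adjusted p = 0.63). GABA transaminase, which returns GABA carbon to the mitochondria, fell under drought in WT at both of its probes (10.0% of all probes tested). Its responses differed by 2.77 at MICRO.100.C1 (adjusted p = 1.3e-05).

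The list held 5 probes of aminotransferases that use alanine, and all 5 rose under drought in WT (8.20% of all probes tested). Further probes of their contigs, outside the list, changed there by less than 2-fold, with −0.75 at MICRO.414.C3, 0.29 at MICRO.1570.C1 and 0.69 at MICRO.1570.C3. Alanine-glyoxylate aminotransferase ACDA01331G11.T3m.scf had 7.72 and 7.49 in *Stpfld252* drought, 5.91 and 5.94 in *Stpfld252* control, 10.70 and 10.60 in WT drought and 5.93 and 5.9998 in WT control, with a difference of responses of −3.002 (adjusted p = 3.7e-06). That of alanine aminotransferase MICRO.1570.C2 was −1.41 (adjusted p = 4.4e-05).

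Proline and arginine derive from glutamate and store nitrogen under stress. Their group held 16 probes, of which 3 were for urease accessory protein G and 1 was listed under aspartate racemase. Drought raised 4 of the 16 (5.61% of all probes tested) and lowered 4 (7.76%) in *Stpfld252*. In WT it raised 8 (8.20%) and lowered 3 (10.0%). The racemase probe (2.40) and 1 urease accessory probe, MICRO.2765.C2 (1.04), were among the 4 raised in *Stpfld252*. The rise at MICRO.2765.C2 was under 2-fold with a normexp offset of 16 (0.87) or 50 (0.65). It was also under 2-fold without *Stpfld252* drought array 1 (0.89). Pyrroline-5-carboxylate synthetase, the first enzyme of proline synthesis, rose in both lines at ACDA02183F11.T3m.scf, by 2.08 in *Stpfld252* (adjusted p = 2.5e-05) and 3.28 in WT (adjusted p = 1.2e-06). The difference of −1.19 (adjusted p = 0.0056) was not called with a normexp offset of 16 or 50, or without *Stpfld252* drought array 2 (−0.99) or WT drought array 1 (−0.99). Proline dehydrogenase MICRO.5135.C1, which begins proline breakdown, was lower in *Stpfld252* than in WT under drought by −2.49 (adjusted p = 4.1e-07) and under control conditions by −1.31 (adjusted p = 2.5e-05), the second of which was under 2-fold with a normexp offset of 50. At the other probes of its contig the differences were under 2-fold, with −0.83 under drought and −0.38 under control conditions at MICRO.5135.C2, and −0.44 under drought and 0.04 under control conditions at MICRO.5135.C3. Arginase, which splits arginine, had its largest difference at MICRO.3305.C1, with 10.98 and 11.02 in *Stpfld252* drought, 13.49 and 13.53 in *Stpfld252* control, 12.49 and 11.99 in WT drought and 12.75 and 13.06 in WT control. Drought thus lowered it in *Stpfld252* (−2.51, adjusted p = 7.6e-06), and its responses differed by −1.85 (adjusted p = 5.7e-04). All 3 probes of urease accessory protein G, which loads nickel into urease, were lower in watered *Stpfld252* than in watered WT (2.00% of all probes tested). Their log2 differences, from −1.32 to −1.25, were not far beyond 2-fold. That call was lost at MICRO.2765.C2 with a normexp offset of 50. At MICRO.2765.C2 the responses differed by 1.81 (adjusted p = 6.2e-05). The responses also differed by −1.37 at ornithine aminotransferase MICRO.1400.C1 (adjusted p = 1.1e-04) and by 1.15 at MICRO.2810.C2, listed under aspartate racemase (adjusted p = 5.4e-04). The second of these calls was lost with median scaling (adjusted p = 0.068). Pyrroline-5-carboxylate dehydrogenase MICRO.3065.C1 was not well above background in the controls of either line, so no fold is given. Its mean in WT drought was 6.43, and its rise under drought in WT was called (adjusted p = 1.9e-06). Its call in WT was lost with a normexp offset of 50. The other probe for this enzyme was also called higher under drought in WT (8.20% of all probes tested). The drought response of that probe was called lower in *Stpfld252* (5.97%).

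Of 14 probes for the branched-chain amino acids, the drought response was lower in *Stpfld252* at 9 (5.97% of all probes tested) and higher at 1 (5.82%). The aminotransferase probe MICRO.10926.C1, for the step shared by their synthesis and breakdown, had 7.13 and 6.84 in *Stpfld252* drought, 5.54 and 5.74 in *Stpfld252* control, 13.82 and 13.88 in WT drought and 5.65 and 5.69 in WT control. WT drought stood far above the other groups, and the difference of responses was −6.84 (SE 0.16, adjusted p = 4.4e-07). The probe was also called higher under drought in *Stpfld252* (1.35), a call lost with a normexp offset of 50 (0.82). Threonine dehydratase, which turns threonine towards isoleucine, had its highest level in another group. MICRO.4585.C1 had 10.00 and 10.27 in *Stpfld252* drought, 12.04 and 12.23 in *Stpfld252* control, 9.60 and 9.43 in WT drought and 8.73 and 8.76 in WT control. Watered *Stpfld252* leaves were the highest, by 10.5-fold over watered WT leaves (3.39, adjusted p = 1.6e-06), and drought lowered the level in *Stpfld252* by 4.00-fold (adjusted p = 4.2e-06). The responses differed by −2.77 (adjusted p = 1.4e-05). Smaller differences were called at isovaleryl-CoA dehydrogenase bf_suspxxxx_0054f04.t3m.scf (1.91), the E2 subunit of the branched-chain keto acid dehydrogenase bf_arrayxxx_0098a12.t7m.scf (−1.60) and ketol-acid reductoisomerase bf_stolxxxx_0011D10.t3m.scf (−1.06). The last of these lay between −0.90 and −0.98 without *Stpfld252* drought array 1, *Stpfld252* control array 1, WT drought array 1 or WT control array 2, each of which ended the call.

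**Figure D4:**
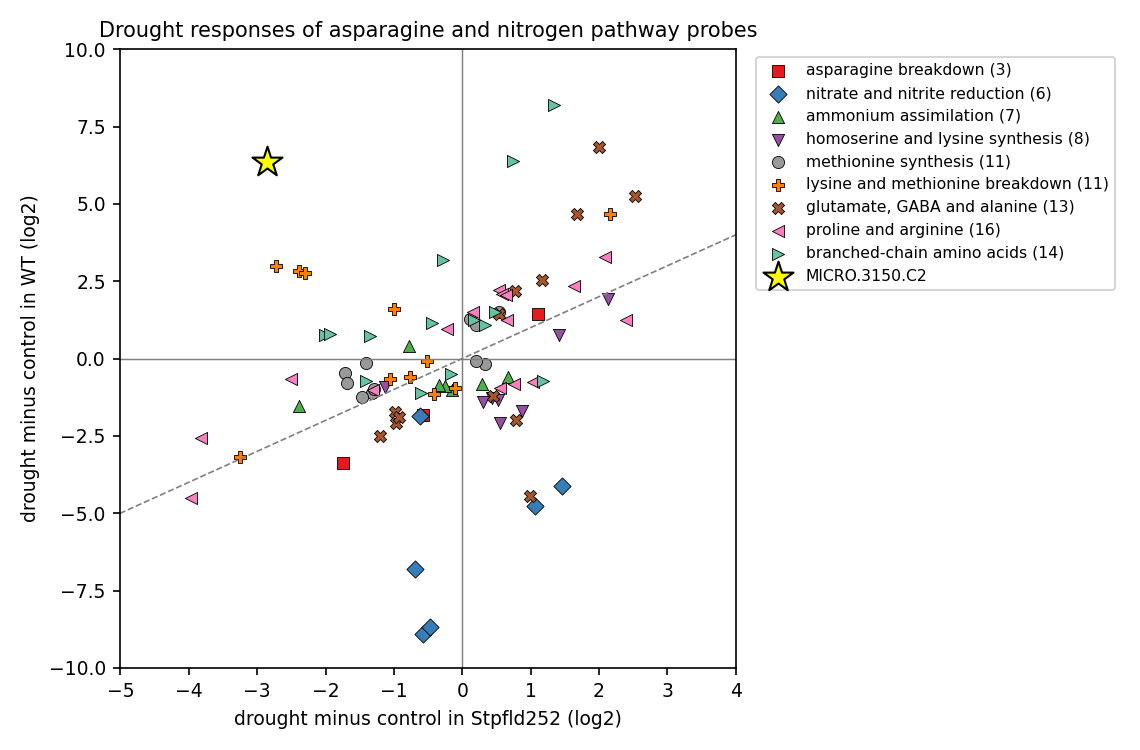
Drought minus control in *Stpfld252* (x axis) against drought minus control in WT (y axis), as log2 difference of group means, for MICRO.3150.C2 and the 89 pathway probes by group, with the number of probes in the legend and a dashed line of equal response. MICRO.3150.C2 lies at −2.86 and 6.34, and the 3 LKR/SDH probes lie on the same side of both zero lines but nearer to 0. On the opposite side of both lines lie 2 nitrite reductase probes.

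The contigs of these probes hold 28 further probes that the analysed tables do not list, of which 23 passed the filter. Of these 23, limma called 1 higher under drought in *Stpfld252* (5.61% of all probes tested), 2 higher under drought in WT (8.20%) and 1 lower in *Stpfld252* than in WT under drought (4.88%). The drought response was lower in *Stpfld252* at 3 (5.97%). MICRO.4464.C1, which passed the filter through WT drought alone, supplied 1 call to each of the last 3 counts. The tables had listed called probes, so these remaining ones are those that the study had mostly not called.

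To find the probes whose pattern was most like that of MICRO.3150.C2, Pearson's r over the 8 arrays was computed for 1239 probes that were well above background on both WT drought arrays and whose group means spanned at least 3 log2 units. The arrays are 4 pairs of replicates on 2 slides, so r describes a pattern of 4 groups and has no test. An r over 0.9 was reached by 16 probes and an r under −0.9 by 22. The highest r, 0.98, was at MICRO.9973.C2, described as similar to a serpin, a proteinase inhibitor. It had 5.41 and 5.48 in *Stpfld252* drought, 6.75 and 6.76 in *Stpfld252* control, 8.06 and 8.11 in WT drought and 4.79 and 4.83 in WT control. The sequence bf_suspxxxx_0009d11.t3m.scf, for which the analysed tables give no description, had the second highest r (0.98) and the smallest root mean square difference from MICRO.3150.C2 after each probe was centred on its own mean (1.13 log2 units).

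The next in r were MICRO.12441.C1, described as the late embryogenesis-like protein ER5 of tomato (0.97), MICRO.6467.C1, described as the NAC domain transcription factor jasmonic acid 2 of tomato (0.96), and STMCT71TV, without a sequence match (0.96). They were followed by MICRO.7180.C1 (0.95), MICRO.17428.C1, listed under RING-type ubiquitin ligases (0.94), and MICRO.7729.C1 (0.94). LKR/SDH thus supplied 2 of these 8 probes. By distance, MICRO.7729.C1 (1.19) was also among the 5 nearest to MICRO.3150.C2. The others were MICRO.17783.C1, POADO59TP and MICRO.14712.C1, for which no distance or order is given. MICRO.17783.C1 was not well above background in *Stpfld252* drought, and MICRO.14712.C1 in any group but WT drought. POADO59TP was not well above background in WT control and was so on 1 of 2 arrays in either *Stpfld252* group. In WT drought, the means of POADO59TP and MICRO.14712.C1 were 9.06 and 8.61, and no fold over WT control is given.

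The most negative r, −0.99, was at MICRO.4160.C1, described as lipase-like, with 16.94 and 16.88 in *Stpfld252* drought, 15.74 and 15.66 in *Stpfld252* control, 13.92 and 13.50 in WT drought and 17.00 and 16.96 in WT control. The nitrite reductase probe MICRO.4468.C1 (−0.99), MICRO.4160.C2 of the same contig as the lipase (−0.98), the nitrite reductase probe MICRO.10331.C1 (−0.98) and SSBT002I14x.scf, listed under GDSL-motif lipases (−0.97), came next. Among the 1239 probes, the 5 most opposite patterns therefore fell on 2 lipase-like probes of 1 contig, 2 nitrite reductase probes and 1 further lipase category. Probes not well above background in WT drought, such as the nitrate reductase probe POCD505TP, were outside the 1239 and could not appear here.

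**Figure D5:**
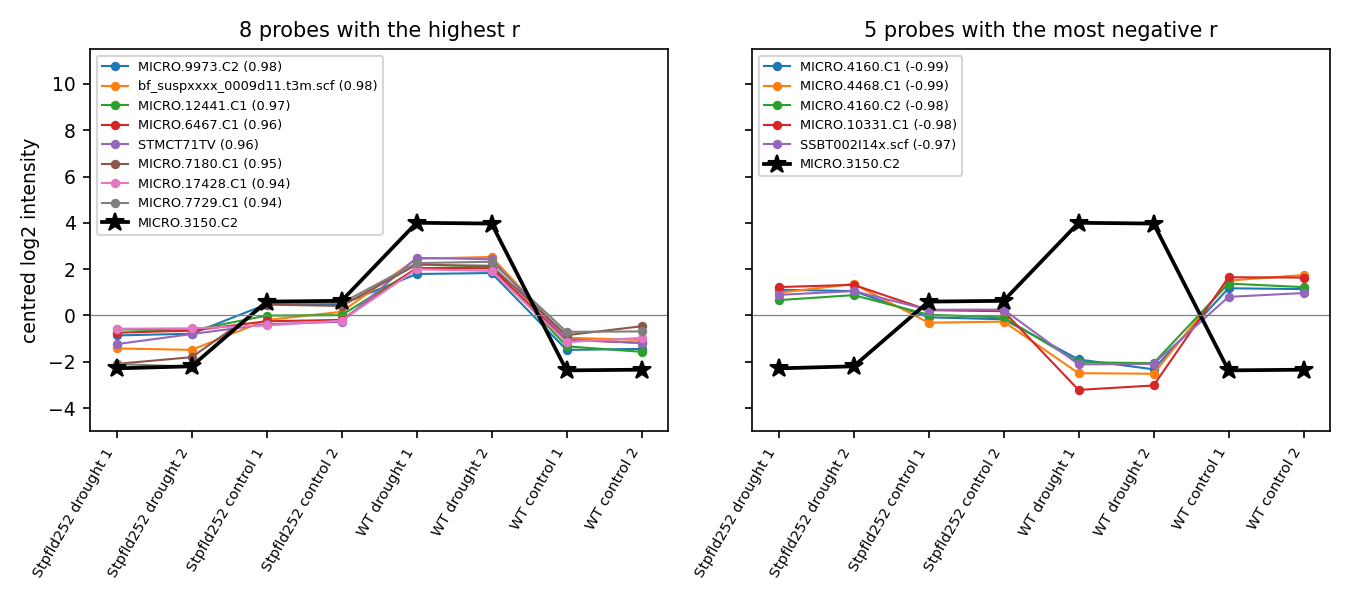
Log2 intensity of each probe minus its mean over the 8 arrays, for MICRO.3150.C2 (black) with the 8 probes of highest r (left) and the 5 of most negative r (right), with r in the legend. The range of MICRO.3150.C2 exceeds that of every probe drawn beside it, and lines join arrays only to guide the eye.

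A stricter description of the pattern was tried after the values were seen. It asked for a mean in WT drought over 2-fold above that in *Stpfld252* control, which in turn was over 2-fold above both remaining groups. Of the 36250 probes 6 met it, namely MICRO.3150.C2, the serpin-like probes MICRO.9973.C1 and MICRO.9973.C2, the LKR/SDH probes MICRO.7729.C1 and MICRO.7180.C1, and bf_mxlfxxxx_0032g01.t3m.scf, whose match is an Arabidopsis protein without a known function. The group means of the last were 8.77 in *Stpfld252* drought, 10.65 in *Stpfld252* control, 11.76 in WT drought and 9.61 in WT control. Its step from WT control to *Stpfld252* control was thus only just over 2-fold. At MICRO.7180.C1 the same step was under 2-fold with a normexp offset of 50 (0.87) or without WT control array 1 (0.91). MICRO.9973.C1 had means of 4.50 in *Stpfld252* drought and 4.49 in WT control. The 95th percentile of the negative controls lay between 4.17 and 4.27 on those arrays, so its steps start near background.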

How the data were processed

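The authors deposited, for each of the 8 one-colour arrays, the median pixel intensity of each spot with that of the background around it, with processed signals and quality flags of the scanner software (version 11.5.1.1 per the file headers), not normalized between arrays. They also deposited log2 values made with normexp correction, quantile normalization and a filter, whose offset is not given in the sources used here. The differences computed from them were the same as with a normexp offset of 16, so these count as 1 alternative.

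In R 4.3.3 with limma 3.58.1, the median intensities of all spots were corrected with normexp (offset 0) and quantile normalized, and control spots were removed. Probes over 1.1 times the 95th percentile of the 153 negative controls on both arrays of at least 1 group were kept (36250). A model of 4 group means shared 1 spread, moderated across probes. Bounds set a signal not well above background at the lowest signal so flagged on its array, or at its own value where higher. The limma fit and its calls were tested on simulated normalized values, and the steps before the fit were not. The number of arrays limits the precision.

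Named are the probes of contig MICRO.3150, those for asparagine breakdown and ammonium assimilation, the largest difference of responses in each role that was called, and the probes most like or opposite in pattern. Others named for comparison, such as further probes of a contig, were chosen after their values were seen. The members and lists were chosen with earlier results of these data known. Names and categories came from the tables of the study. No sequence was printed, as none was in the files used here. Alternatives were normexp offsets of 16 and 50, the processed signal set to its 75th percentile, median scaling, cyclic loess, 2 other filters, outlier spots set to missing, a trend with a robust prior, only the arrays compared, a replicate block and leaving out each array.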

Additional observations from a re-analysis of the deposited data

Results flagged for a closer look

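The drought responses of *Stpfld252* and WT differed by limma's test of the difference itself, beyond 2-fold at an adjusted p under 0.05, at each named pathway probe below, and are given as the response of *Stpfld252* minus that of WT on the log2 scale. For MICRO.3150.C2 the value, −9.20, was the reason for its choice and was not tested. Positive differences were 1.63 at MICRO.5707.C1 and 1.25 at MICRO.16117.C1 (asparaginase), 8.33 at MICRO.18049.C1 (nitrate reductase), and 5.83 at MICRO.10331.C1 and 5.59 at MICRO.4468.C1 (nitrite reductase). They were 1.25 at MICRO.1095.C1 and 1.12 at MICRO.1095.C2 (glutamine synthetase), 2.62 at MICRO.710.C1 and 1.86 at MICRO.9291.C1 (aspartate kinase, the first with homoserine dehydrogenase). Further ones were 5.44 at MICRO.3974.C4 (glutamate decarboxylase), 2.77 at MICRO.100.C1 (GABA transaminase), 1.15 at MICRO.2810.C2 (listed under aspartate racemase), 1.81 at MICRO.2765.C2 (urease accessory protein G) and 1.91 at bf_suspxxxx_0054f04.t3m.scf (isovaleryl-CoA dehydrogenase).

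Negative differences were −5.71 at MICRO.7729.C1, −5.22 at MICRO.7180.C1 and −5.06 at MICRO.4464.C2 (LKR/SDH), −6.84 at MICRO.10926.C1 (branched-chain aminotransferase) and −4.84 at MICRO.6945.C1 (glutamate decarboxylase). They were −3.002 at ACDA01331G11.T3m.scf and −1.41 at MICRO.1570.C2 (aminotransferases that use alanine), −2.77 at MICRO.4585.C1 (threonine dehydratase), −2.59 at MICRO.7814.C1 (listed under lysine decarboxylase) and −2.52 at MICRO.2739.C1 (methionine gamma-lyase). Smaller ones were −1.17 at MICRO.292.C1 (NADH-dependent GOGAT), −1.26 at MICRO.43.C3 (S-adenosylmethionine synthetase), −1.19 at ACDA02183F11.T3m.scf, −1.18 at MICRO.5135.C1 and −1.68 at MICRO.3065.C1 (proline synthesis and breakdown, the last with controls not well above background and so not a measured difference), −1.85 at MICRO.3305.C1 (arginase), −1.37 at MICRO.1400.C1 (ornithine aminotransferase), −1.06 at bf_stolxxxx_0011D10.t3m.scf (ketol-acid reductoisomerase) and −1.60 at bf_arrayxxx_0098a12.t7m.scf (branched-chain keto acid dehydrogenase). Of these differences, 8 fell under 2-fold or lost their adjusted p with median scaling, a normexp offset of 50, the processed signal or 1 array left out, namely those at MICRO.16117.C1, MICRO.1095.C1, MICRO.1095.C2, MICRO.2810.C2, MICRO.5135.C1, MICRO.3065.C1, bf_stolxxxx_0011D10.t3m.scf and ACDA02183F11.T3m.scf. Without WT control array 2 the difference at MICRO.1095.C2 was 0.99.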

How the results depend on the processing

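The 5 differences of MICRO.3150.C2 kept their sign under all alternatives run. Drought minus control in *Stpfld252*, −2.86, was −2.74 with the processed signal set to its 75th percentile and −2.96 with cyclic loess, and lay between −2.90 and −2.81 with each array left out in turn. Drought minus control in WT, 6.34, was 6.30 with a normexp offset of 50 and 6.16 with cyclic loess (6.33 to 6.36 without 1 array). *Stpfld252* minus WT under drought, −6.23, was −6.19 with an offset of 50, −6.07 with the processed signal and −6.30 with median scaling (−6.27 to −6.18), and under control conditions, 2.97, it was 2.92 with cyclic loess (2.96 to 2.99). The difference of the responses, −9.20, was −9.13 with an offset of 50, −9.07 with the processed signal, −9.24 with median scaling and −9.12 with cyclic loess (−9.25 to −9.16). The other values moved by less than the SD between replicates. Median scaling moved the median change of all probes under drought in *Stpfld252* to 0.197. Counts of pathway probes stayed within 1.5 times those given. The other probes of contig MICRO.3150 could not be examined, since there was 1. Deviations between replicates were weakly correlated between groups (from −0.148 to 0.161 over 6 pairs of groups). The paper describes its pools as coming from independent experiments. Weak correlations cannot show whether arrays with the same replicate number shared an experiment. With the replicate number as a block the differences of MICRO.3150.C2 stayed −2.86, 6.34, −6.23, 2.97 and −9.20. The counts for the difference of responses stayed 25 and 31. Over the tested differences of named probes and all other settings, 2827 values stayed on their side of the threshold, 41 calls were lost and 18 gained, against 1938, 13 and 9 with 1 array left out, and the sign of a called difference was kept throughout. The cause of these shifts was not tested. With 1 array left out, the lone array of a group was assumed to vary like the others, and 2 arrays per group limit all these values.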
